A study of Homo sapiens with 3 samples.

Results

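The miRNAs described here are 5 mature products linked to energy metabolism, hsa-miR-210-3p of MIR210, hsa-miR-378a-3p and hsa-miR-378a-5p of MIR378A, and the related hsa-miR-378c and hsa-miR-378d, written below without the prefix for human. They were chosen by name from the 2588 mature miRNAs in the deposited data, and values were summed over the loci of each. The study was built around blocking miR-21-5p in tumor cells, and here the unedited parental cells of 3 human lines were profiled by small RNA sequencing, namely C643 (thyroid cancer), ES-2 (ovarian cancer) and Huh-7 (liver cancer). Each line gave 1 library from 50 ng of total RNA of untreated cells collected 48 h after seeding, so no difference between lines has a replicate check and a line is represented by 1 culture.

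miRNAs guide Argonaute proteins to partly complementary mRNAs, mainly through the seed at bases 2 to 8 of the mature strand. miR-210-3p is the best known miRNA induced by low oxygen. Its gene is a target of the transcription factor HIF1A, and it represses ISCU, a scaffold for iron-sulfur clusters of the respiratory chain. The arms of MIR378A arise from an intron of PPARGC1B, which encodes a coactivator of mitochondrial and fatty acid oxidation genes, and work in mice linked them to mitochondrial metabolism through the targets CRAT and MED13.

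MIR210 lies at chr11:568089-568198 on the minus strand (GRCh38, GENCODE release 29), in an intron of the long non-coding RNA gene MIR210HG. MIR378A lies at chr5:149732825-149732890 on the plus strand, in an intron of the protein-coding gene PPARGC1B on the same strand. MIR378C at chr10:130962588-130962668 on the minus strand overlaps no other annotated gene.

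The mature sequences of 4 of the 5 members and of 3 relatives are printed from RefSeq (GRCh38.p14) to show which products can be told apart, with the seed in capitals. The RefSeq table used had no mature miR-378d.
miR-210-3p: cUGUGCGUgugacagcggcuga
miR-210-5p: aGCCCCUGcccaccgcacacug
miR-378a-5p: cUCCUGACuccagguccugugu
miR-378a-3p: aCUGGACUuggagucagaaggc
miR-378c: aCUGGACUuggagucagaagagugg
miR-378f: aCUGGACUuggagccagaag
miR-422a: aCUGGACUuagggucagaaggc

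No other human miRNA in that RefSeq table has the seed of miR-210-3p, whereas the seed of miR-378a-3p occurs in 7. miR-378c and miR-378a-3p are identical over their first 20 bases, so a read that ends at or before this base does not separate them. How such reads were assigned is not given in the sources used here, and the counts of miR-378c and miR-378d are therefore uncertain. miR-378f differs from miR-378a-3p at 1 base of their overlap and miR-422a at 2 bases.

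The C643 library held 8183100 miRNA reads, that of ES-2 1663181 and that of Huh-7 2173587. miR-122-5p, the defining miRNA of hepatocytes, took 13.3% of the Huh-7 reads, against 0.00572% in C643 and 0.000361% in ES-2. Thyroid and ovarian origin were not checked, since no such marker miRNA was set. All 5 members together made up 0.0247% of the C643 reads, 0.0717% of those of ES-2 and 0.0424% of those of Huh-7, and miR-378a-3p supplied 90.7% to 96.6% of these. The group was thus a minor part of each library, in which miR-21-5p held 28.2% to 33.3%. Intervals and upper limits given here cover counting error only, because PCR copies were not separated.

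miR-210-3p was low in all 3 libraries and highest in Huh-7. It had 20 reads in C643, a share of 0.000244% (Wilson 95% CI 0.000158 to 0.000378). In ES-2 it had 0 of 1663181 reads, which allows a share of up to 0.00018%. In Huh-7 it had 79 reads, or 0.00363% (0.00292 to 0.00453), at rank 253 of 858 miRNAs with a read. The Huh-7 level lay outside the intervals of the other lines, and the plot of shares shows it well above both. By share, Huh-7 exceeded C643 14.9-fold (exact 95% CI 9.01 to 25.7) and ES-2 at least 20.1-fold, taking 3 reads as the ES-2 limit. The C643 share was 1.35 times the same ES-2 limit, but the C643 interval reached below that limit. At the C643 share, 4.06 reads would have been expected in ES-2, so C643 and ES-2 were hardly separable at the ES-2 depth.

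**Figure D1:**
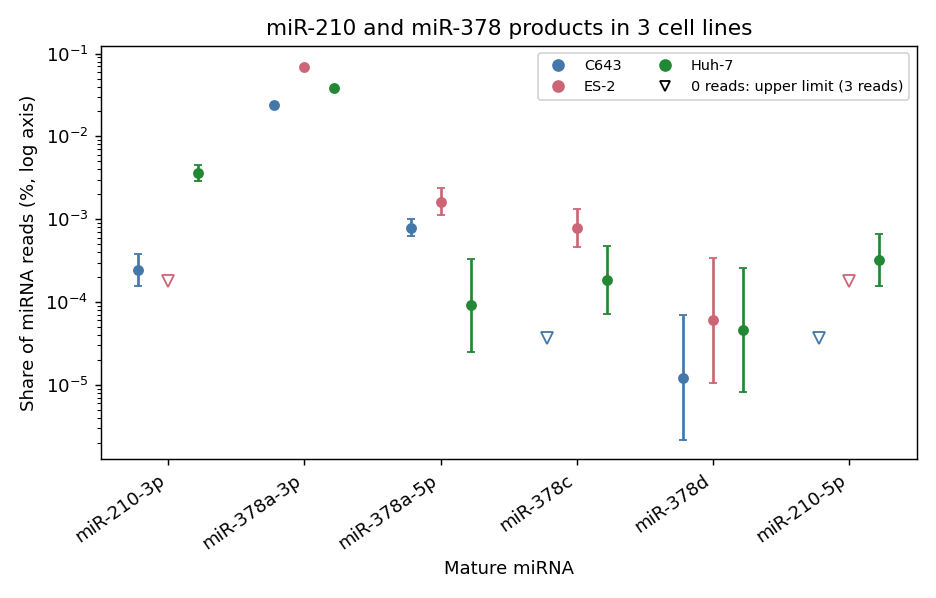
Share of miRNA reads (%, log axis) of each member and of miR-210-5p in C643, ES-2 and Huh-7, 1 library each. Points are shares, bars Wilson 95% intervals, and open triangles the upper limit of 3 reads where a library had 0 reads; miR-378a-3p stands highest in each line, from 0.0237% to 0.0693%.

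The other arm of MIR210 was nearly absent. miR-210-5p had 7 reads in Huh-7, a share of 0.000322% (0.000156 to 0.000665), and 0 in C643 and in ES-2. In Huh-7 the 3p arm, which is the arm described as functional, therefore exceeded the 5p arm 11.3-fold (exact 95% CI 5.23 to 28.98). In C643 the 5p arm had an exact 95% upper limit of 20.3% of the 3p arm, and in ES-2 no ratio could be formed because neither arm had a read.

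miR-378a-3p was the main member in every line. It had 1936 reads in C643, a share of 0.0237% (Wilson 95% CI 0.0226 to 0.0247). In ES-2 it had 1152 reads, or 0.0693% (0.0654 to 0.0734). In Huh-7 it had 835 reads, or 0.0384% (0.0359 to 0.0411). The order by share was ES-2, Huh-7 and C643, and no 2 of these intervals overlapped. miR-378a-3p ranked 71 of 608 miRNAs with a read in ES-2, 113 of 858 in Huh-7 and 113 of 649 in C643. In the rank plot it lies above the other members on each curve. Of these, miR-378a-5p reached rank 251 and miR-378c rank 296 in ES-2.

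**Figure D2:**
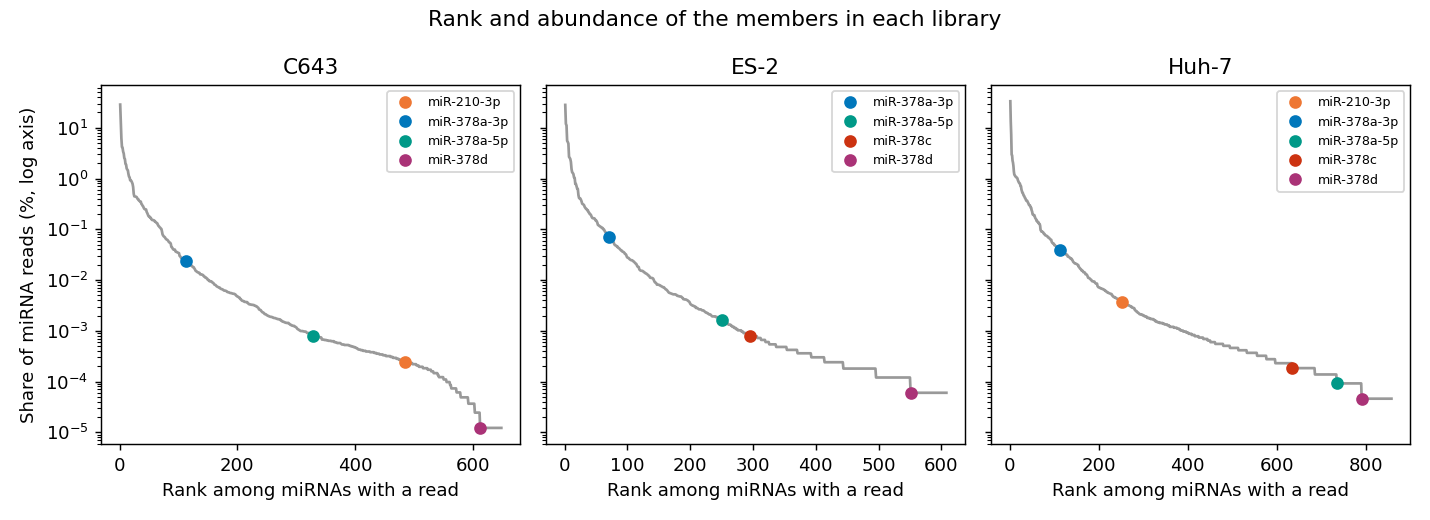
Share of miRNA reads (%, log axis) against rank for all miRNAs with at least 1 read, 1 panel per library, with the members as coloured points. miR-378a-3p stands at rank 71 to 113, and miR-210-3p at rank 485 in C643 and 253 in Huh-7.

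Set against the most abundant miRNA, miR-21-5p exceeded miR-378a-3p 407-fold in ES-2, 867-fold in Huh-7 and 1209-fold in C643. It exceeded miR-210-3p 117073-fold in C643 and 9160-fold in Huh-7.

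miR-378a-5p, the less abundant arm of the precursor, was scarce and least frequent in Huh-7. It had 65 reads in C643, a share of 0.000794% (Wilson 95% CI 0.000623 to 0.00101). In ES-2 it had 27 reads, or 0.00162% (0.00112 to 0.00236). In Huh-7 it had 2 reads, or 9.20e-05% (2.52e-05 to 0.000336). The order was ES-2, C643 and Huh-7, without overlap of the intervals, and thus not the order of its sister arm. Huh-7 ranked second for the 3p arm and last for the 5p arm.

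The balance of the arms of MIR378A is free of any scaling between libraries. For every 100% of miR-378a-3p there was 3.36% of miR-378a-5p in C643 (exact 95% CI 2.58 to 4.30), whereas ES-2 had 2.34% (1.54 to 3.43) and Huh-7 had 0.240% (0.0290 to 0.868). The interval of Huh-7 lay below those of C643 and ES-2. Between libraries the odds of 5p against 3p reads were 14.0 times higher in C643 than in Huh-7 (exact conditional 95% CI 3.71 to 118) and 9.78 times higher in ES-2 than there (2.45 to 85.1). C643 and ES-2 differed 1.43-fold, with an interval of 0.895 to 2.35 that includes equality. The contrast rests on the 2 Huh-7 reads of the 5p arm and was picked out after its values had been seen.

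Shifts of this size also occurred in other precursors. Of precursors with at least 100 reads over both arms in each of the 2 libraries, 18.7% of 91 had a 5p to 3p ratio at least 4-fold apart between ES-2 and Huh-7, with 0.5 reads added to each arm. The log2 difference of MIR378A was 2.995, with 9 precursors at this size or beyond it, MIR378A included. Between C643 and Huh-7 the share was 32.8% of 125 precursors, and the log2 difference of MIR378A, 3.50, ranked 16. Between C643 and ES-2 the share was 26% of 104, and MIR378A differed by 0.50, under the median absolute difference of 1.21. MIR378A was therefore among the precursors with larger arm shifts against Huh-7, but not alone in this.

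**Figure D3:**
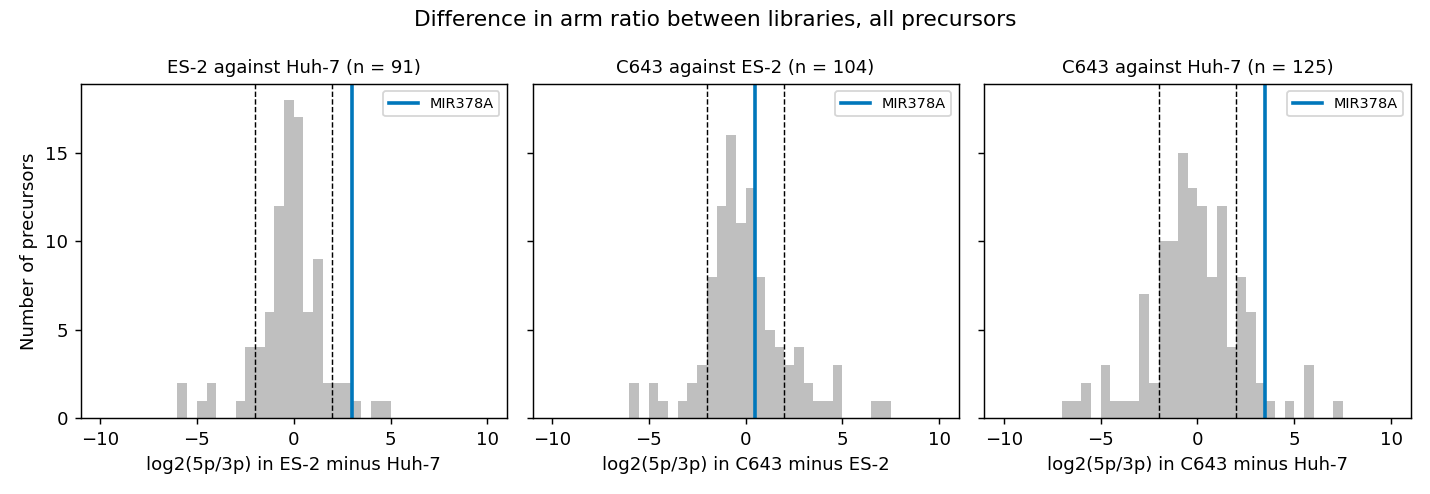
Histograms of the difference in log2(5p/3p reads) between 2 libraries over precursors with at least 100 reads in both, 1 panel per pair. The blue line marks MIR378A, at 2.995, 0.50 and 3.50 from left to right, and dashed lines mark 4-fold.

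The remaining members were close to the limit of detection. miR-378c had 13 reads in ES-2, a share of 0.000782% (Wilson 95% CI 0.000457 to 0.00134), and 4 reads in Huh-7, or 0.000184% (7.16e-05 to 0.000473). In C643 it had 0 of 8183100 reads, which allows a share of up to 3.67e-05%. By share ES-2 exceeded Huh-7 4.25-fold (exact 95% CI 1.31 to 17.9) and C643 at least 21.3-fold. C643 had the deepest library, and at the ES-2 share 64.0 reads would have been expected there. Of the 306 miRNAs with at least 13 reads in ES-2, 13 had none in C643, or 4.25%.

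Relative to miR-378a-3p, miR-378c reached 1.13% in ES-2 (exact 95% CI 0.599 to 1.94) and 0.479% in Huh-7 (0.130 to 1.23). These intervals overlap. In C643, where miR-378a-3p was covered by 1936 reads, the exact upper limit was 0.191%, below the interval of ES-2. The C643 values come from a separate table, and whether those reads were assigned to loci in the same manner was not tested.

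miR-378d, listed at loci on 2 chromosomes, had 1 read in each library, at the locus on chromosome 4 in ES-2 and at the other in C643 and Huh-7. No fold was formed from these. Its locus on chromosome 4, MIR378D1, lies at 5923275 to 5923328 on the minus strand in an intron of the protein-coding gene C4orf50.

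The rest of the miR-378 family was all but silent. Of 8 relatives, miR-378b, miR-378e to miR-378j and miR-422a, C643 had reads for 2, ES-2 for 1 and Huh-7 for 0. These were miR-422a, with 1 read in ES-2 and 4 in C643, and miR-378f, with 3 reads in C643. Over the 7 miRNAs that carry the seed of miR-378a-3p in the RefSeq table, the products other than miR-378a-3p added 14 reads in ES-2, 7 in C643 and 4 in Huh-7, as the reads were assigned. miR-378d is absent from that table, so its seed was not checked and its reads are not included.

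ES-2 and Huh-7 share a deposited table and were compared on its scale, with a difference of at least 2 in log2(value + 1) counted as 4-fold and a value of at least 10 in either library required. This scale understates the fold of low miRNAs. Of the 5 members, 3 passed the limit and 2 were at least 4-fold apart, against 47.2% of all 390 miRNAs that passed. miR-378a-5p was the member higher in ES-2, where the background was 19.5%, and miR-210-3p the member higher in Huh-7, where it was 27.7%. With so few members these counts say nothing about the group. The split of all calls depended on the scaling, with 41.3% of calls higher in ES-2 on the deposited scale and 30.4% by share.

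miR-210-3p had a deposited value of 0 in ES-2 and of 22.2 in Huh-7, a log2 difference of -4.54, and was at least 10.7-fold higher in Huh-7. miR-378a-3p had values of 799.7 in ES-2 and of 235.1 in Huh-7, a log2 difference of 1.76. Its ratio was 3.40 (exact 95% CI 3.11 to 3.72), and 1.80 by share (1.65 to 1.97), so ES-2 was higher on both scales by more than counting error while remaining under 4-fold. miR-378a-5p had values of 18.7 in ES-2 and of 0.563 in Huh-7, a log2 difference of 3.66. Its ratio was 33.3 (8.36 to 289), and 17.6 by share (4.43 to 153), with upper bounds left wide by the 2 reads of Huh-7. miR-378c and miR-378d had values under 10 in both libraries and were not compared on this scale.

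**Figure D4:**
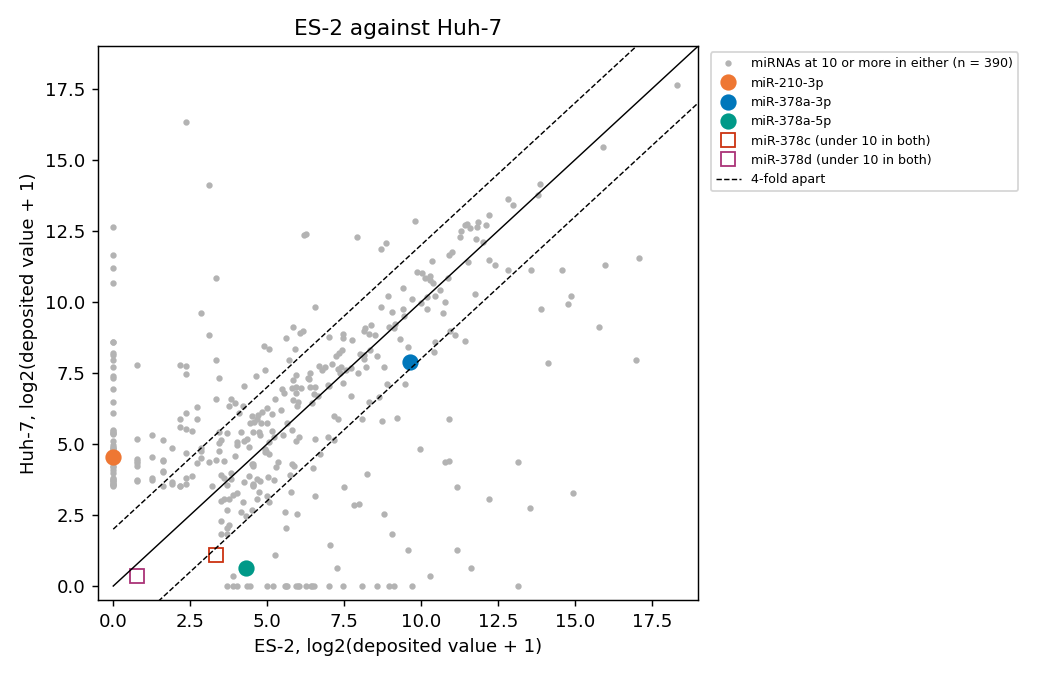
Deposited values of ES-2 and Huh-7 as log2(value + 1) for 390 miRNAs at 10 or more in either (grey), with the 5 members coloured and open squares for members under 10 in both. The solid line marks equality and the dashed lines 4-fold; miR-210-3p lies above the band, miR-378a-5p below it and miR-378a-3p, at a log2 difference of 1.76, just inside it.

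C643 was set against the other lines as a description, since it comes from a separate table that may have been normalized on its own. Against ES-2, 2 members passed the limit and 0 were at least 4-fold apart, where the background over 351 miRNAs was 26.2%, with 15.4% higher in C643 and 10.8% higher in ES-2. miR-378a-3p was 3.52-fold higher in ES-2 (exact 95% CI 3.27 to 3.79), and 2.93-fold by share (2.72 to 3.15). miR-378a-5p was 2.46-fold higher in ES-2 (1.51 to 3.91), and 2.04-fold by share (1.25 to 3.25). Both arms were therefore higher in ES-2 than in C643 by a similar ratio.

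Against Huh-7, 2 members passed and 1 was at least 4-fold apart, where the background over 399 miRNAs was 47.6%, with 22.6% higher in C643 and 25.1% higher in Huh-7. That member was miR-210-3p, at 2.34 in C643 and 22.2 in Huh-7, a log2 difference of -2.80 and a ratio of 9.49 in favour of Huh-7 (5.75 to 16.4). For miR-378a-3p the order of C643 and Huh-7 rested on the scaling. The deposited values, 227.0 in C643 and 235.1 in Huh-7, differed 1.04-fold with an interval of 0.954 to 1.12 that includes equality. By share Huh-7 was 1.62-fold higher (1.495 to 1.76). miR-378a-5p went the other way but was under 10 in both libraries, at 7.62 in C643 and 0.563 in Huh-7. Its ratio was 13.5 in favour of C643 (3.60 to 114), and 8.63 by share (2.296 to 72.8).

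The relation of the hypoxia-linked to the PPARGC1B-linked miRNA can be read within each library. miR-210-3p amounted to 1.03% of miR-378a-3p in C643 (exact 95% CI 0.630 to 1.60) and to 9.46% in Huh-7 (7.41 to 11.9). In ES-2 it had 0 reads against 1152, with an exact upper limit of 0.321%. Huh-7 was highest, followed by C643, and neither interval reached the ES-2 limit. Part of the gap between C643 and ES-2 lies in the denominator, since miR-378a-3p was 2.93-fold higher by share in ES-2. In miR-210-3p alone these lines were hardly separable. The odds of miR-210-3p against miR-378a-3p reads were 9.15 times higher in Huh-7 than in C643 (exact conditional 95% CI 5.50 to 15.9). For Huh-7 over ES-2 the lower end of the exact 95% interval was 28.7. With the 0 reads of ES-2 set to 3, the ratio was 36.3-fold higher in Huh-7.

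Other miRNAs described as induced by low oxygen were far more abundant than miR-210-3p. By share 8 of 11 were highest in Huh-7, and 4 of 11 had the full order of miR-210-3p, with ES-2 lowest. These 4 were miR-23b-3p, miR-27b-3p, miR-181a-5p and miR-181b-5p. The share of all miRNAs with either pattern was not computed, and for miR-210-3p itself C643 and ES-2 were hardly separable. All miRNAs compared also leaned to Huh-7 by share. Their median log2 difference was -1.44 for ES-2 and -0.85 for C643, each against Huh-7, so this lean was not particular to the list. On the deposited scale miR-27b-3p was instead slightly higher in C643 than in Huh-7, by 0.15 in log2. Of the 11 on this list, each of which had reads in each library, the sum was 9.27% of reads in Huh-7, 6.60% in C643 and 4.17% in ES-2. Between ES-2 and Huh-7 the median log2 difference on the deposited scale was -0.46, against -0.54 over all miRNAs compared. Of the 11, 2 exceeded 4-fold in favour of ES-2 and 2 in favour of Huh-7, where the background was 19.5% and 27.7%. Those higher in ES-2 were miR-23a-3p (2.43) and miR-27a-3p (2.80), which come from 1 cluster, and those higher in Huh-7 were miR-23b-3p (-3.18) and miR-27b-3p (-3.03) of its paralog. By share miR-23a-3p and miR-27a-3p fell under 4-fold, at 1.52 and 1.88, and 3 exceeded it in favour of Huh-7, miR-26b-5p (-2.10) being added. The background by share was 38.2% in favour of Huh-7 and 16.7% in favour of ES-2.

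Against ES-2, 2 of the 11 exceeded 4-fold in favour of C643 and 0 in favour of ES-2. The median was 0.38 against 0.07 over all, and the background was 15.4% in favour of C643 and 10.8% of ES-2. These 2 were miR-23b-3p and miR-27b-3p, which share 1 cluster, so they are not separate observations. Against Huh-7, 3 exceeded 4-fold in favour of C643 and 0 in favour of Huh-7, with a median of -0.01 against -0.21. The background was 22.6% in favour of C643 and 25.1% of Huh-7. These 3 were miR-23a-3p, miR-24-3p and miR-27a-3p, which can come from 1 cluster, so they are not separate observations either. By share the counts were 2 in favour of C643 and 3 in favour of Huh-7, with a median of -0.66 against -0.85, where the background was 19.3% and 32.3%. On the deposited scale 7 of the 11 were higher in Huh-7 than in C643 by any amount. Of these, miR-23b-3p (-0.0027) and miR-181a-5p (-0.0097) were almost level. The median of -0.21 over all miRNAs leaned the same way, and the same count over all was not made.

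miRNAs from introns of other metabolic genes were examined beside miR-378a. miR-33a and miR-33b lie in SREBF2 and SREBF1, which encode regulators of sterol and fatty acid synthesis, and miR-103a and miR-107 lie in PANK genes, whose products start coenzyme A synthesis. Of the 6 products, 3 passed the limit in each comparison and 0 were at least 4-fold apart on the deposited scale. Over all miRNAs the share 4-fold apart was 47.2% for ES-2 against Huh-7, 26.2% for C643 against ES-2 and 47.6% for C643 against Huh-7. With 3 products these counts say nothing about the group. By share miR-103a-3p (-2.22) and miR-107 (-2.55) passed 4-fold in favour of Huh-7 against C643, where the background was 32.3%. In the other comparisons 0 passed by share. Over the 3 products that passed, the median log2 difference on the deposited scale was -0.29 between ES-2 and Huh-7, against -0.54 over all. It was -0.78 for C643 against ES-2 and -1.57 for C643 against Huh-7, against 0.07 and -0.21 over all. A median of 3 is the value of 1 miRNA, here miR-33b-3p between ES-2 and Huh-7 and miR-103a-3p in the other comparisons. These medians therefore do not describe a shift of a group.

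The share of miR-103a-3p was 2.07% in Huh-7, against 0.632% in ES-2 and 0.443% in C643. miR-107, whose sequence is nearly the same, held 0.0290%, 0.0143% and 0.00489%, so the split between them is uncertain. Both were lowest in C643 and highest in Huh-7, a different order from that of miR-378a-3p, which was highest in ES-2.

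The miR-33 products were scarce, with at most 104 reads in a library. miR-33a-5p had 13 reads in ES-2, 25 in Huh-7 and 0 in C643. In these lines miR-33a-3p had 2, 15 and 0 reads, miR-33b-5p had 2, 5 and 0, and miR-33b-3p had 12, 37 and 104. C643 therefore had reads for the 3p arm of MIR33B but for neither 5p product, and its 0 for miR-33a-5p resembles its 0 for miR-378c, which had the same 13 reads in ES-2.

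**Figure D5:**
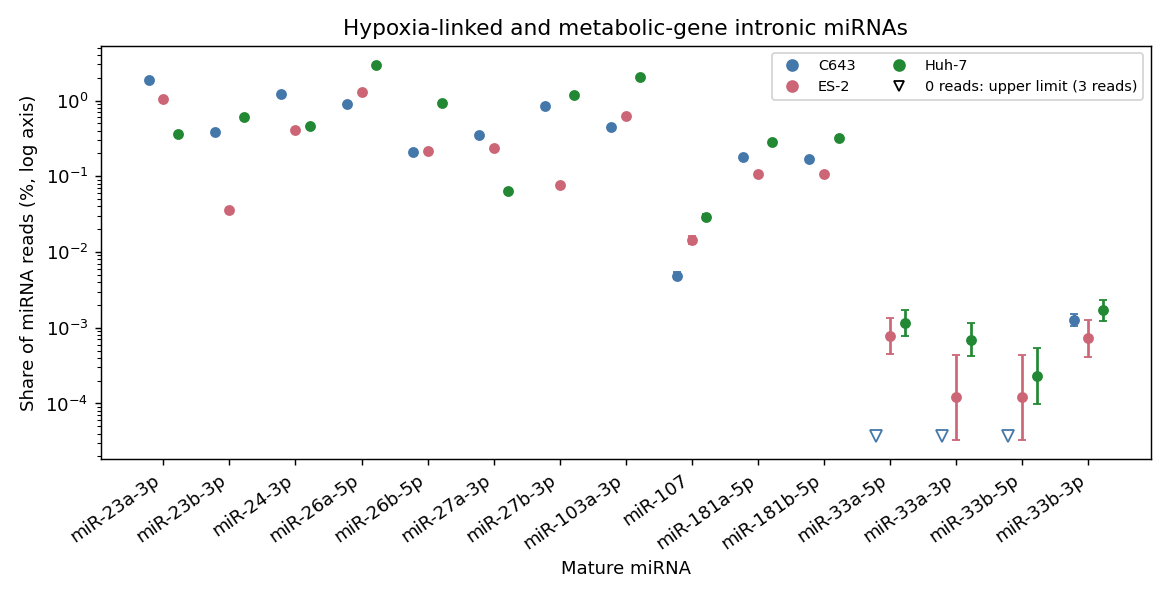
Share of miRNA reads (%, log axis) of 11 hypoxia-linked miRNAs and of products from introns of metabolic genes, in C643, ES-2 and Huh-7. Points are shares, bars Wilson 95% intervals and open triangles the upper limit at 0 reads; miR-103a-3p and miR-107 belong to both lists, and the miR-33 products lie lowest.

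Among 200 miRNAs at 10 or more in each library, the pattern most like that of miR-210-3p was sought by the Euclidean distance between centred log2 shares over the 3 libraries. The nearest were miR-196a-5p, miR-130a-3p and miR-532-5p, but their order rests on the constant of 1 added to each share per 1000000 reads, since miR-210-3p had 0 reads in ES-2. With these 0 reads set to 3 and no constant, miR-532-5p came nearest, followed by miR-501-3p and miR-130a-3p, and miR-196a-5p stood at rank 9 of 200. miR-196a-5p held 0.818% of reads in Huh-7, 0.114% in C643 and 0.0209% in ES-2, the same order as miR-210-3p at a far higher level.

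For miR-378a-3p the nearest of 199 were miR-941 at 0.34, let-7c-5p at 0.38 and miR-424-5p at 0.47, with a median of 2.05. Each was highest in ES-2, with let-7c-5p at 0.168% in ES-2, 0.0813% in Huh-7 and 0.0727% in C643. A likeness over 3 libraries is weak, and many miRNAs can share an order by this measure.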

How the data were processed

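The submitters' processing notes name hg38, cutadapt 1.14, Bowtie2 2.3.3, SAMtools 1.5, featureCounts 1.5.3 and edgeR 3.18.1, without their order. The miRNA annotation version, the treatment of reads matching several loci and the use of random adapter bases are not given in the sources used here. The deposited signal gives the reads of each miRNA locus after scaling, which the authors named CPM. It was not plain CPM, since the C643 column summed to 959302, that of ES-2 to 1154552 and that of Huh-7 to 612015.

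Each nonzero value was a whole multiple (within 0.001) of the smallest one of its column, for 100% of values. Whole reads were recovered by this step, 1 read being worth 0.694 in ES-2, 0.282 in Huh-7 and 0.117 in C643. Shares are reads over the library total, with Wilson intervals. Ratios have exact conditional intervals, and for shares and folds 0 reads were given an upper limit of 3. Folds given as at least a value use that limit and take the other count as free of error. All calculations used Python 3.11.15 with scipy 1.17.1.

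The members and lists were chosen with earlier results of these data known. Named were the members, miR-210-5p, the list members with at least 10 reads, miR-21-5p, miR-122-5p and the 3 nearest patterns to miR-210-3p and miR-378a-3p, leaving out miRNAs of the same seed. miRNAs named below 10 reads, the arm comparison over precursors and the counts of miRNAs without reads in C643 were added after values had been seen, as were counts of the lists by share and the pattern search with 3 reads for miR-210-3p in ES-2. RefSeq sequences matched 2281 of 2588 names. An exact binomial test of reads, an alternative added later, recovered 100% of 200 miRNAs changed 8-fold and called 2.63% of 190 unchanged ones on simulated data for ES-2 against Huh-7. The simulated libraries differed by counting error only, as the test assumes, so these rates do not carry over to the unreplicated libraries.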

Additional observations from a re-analysis of the deposited data

How the results depend on the processing

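No paired analysis was possible because there was a single library per line, without replicate numbers. Of 77 values recomputed under alternatives, 45 stayed within counting error or within 1.5 times of a count and 32 moved, those of the lists and patterns given above included, and no member 4-fold apart changed direction. Dividing by 1000000 gave 0.00222% for miR-210-3p in Huh-7, while miR-378a-3p came to 0.0235% there and to 0.0800% in ES-2. Without miR-21-5p in the denominator the values were 0.00545% for miR-210-3p in Huh-7, and 0.0331%, 0.0965% and 0.0576% for miR-378a-3p in C643, ES-2 and Huh-7.

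By share, the log2 difference of miR-210-3p between ES-2 and Huh-7 was -5.22. That of miR-378a-3p was 0.85 between ES-2 and Huh-7, -1.55 for C643 against ES-2 and -0.70 for C643 against Huh-7. With the median ratio set to 0, miR-378a-3p rose to 2.04 between ES-2 and Huh-7, just past 4-fold. A pseudocount of 10 shrank miR-210-3p to -1.69 between ES-2 and Huh-7 and to -1.39 between C643 and Huh-7, under 4-fold.

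Members 4-fold apart numbered 0 with a pseudocount of 10, both for ES-2 and for C643 against Huh-7. Without a filter there were 2 for C643 against Huh-7 and 1 for C643 against ES-2, and 2 were at least 2-fold apart between C643 and ES-2. Over all miRNAs, a pseudocount of 10 gave 122 for ES-2 and 122 for C643 against Huh-7, and 46 for C643 against ES-2. It also turned the balance of these calls, to 60 in favour of Huh-7 and 62 of ES-2 from 108 and 76, to 22 higher in C643 and 24 in ES-2 from 54 and 38, and to 67 higher in C643 and 55 in Huh-7 from 90 and 100. No filter gave 286, 314 and 205 in that order, and 2-fold gave 204 for C643 against ES-2. The binomial test of reads called 344 of 390 miRNAs between ES-2 and Huh-7, all 3 members that passed the limit among them, and compares these 2 libraries only. Reads are not replicates of a line, so these calls cover counting error only. Depth limited ES-2 most, where 3 reads were worth 2.08 on the deposited scale.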
